A study of Mus musculus with 2 samples.

Results

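Among primary aortic vascular smooth muscle cells (VSMCs) in culture, a small set of cells held transcripts of 3 detoxification genes together, namely *Gsta4* and *Gsta3*, which encode glutathione S-transferases of the alpha class, and *Aldh3a1*, which encodes an aldehyde dehydrogenase. The cells came from thoracic aortae of wildtype mice, several of which were pooled per preparation, and were grown for 5 days in medium with serum before single-cell RNA sequencing with 3′ UMI counting. There was 1 condition, with biological replicates 1 and 2 as 1 library each, no treatment and no other genotype, and the study's non-atherosclerotic mice, of both sexes, were on a C57BL6/N background. The age of the mice used for sequencing is not given in the sources used here. The libraries held 127949633 and 132561822 UMIs in all. A barcode was kept as a cell if it had 300 or more genes, 3000 or more UMIs and a mitochondrial share below 20%, which left 4866 and 6824 cells with a median of 22234.5 and 16310 UMIs.

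Members were selected on their UMI counts of these 3 genes, as the kept cells with at least 2 *Gsta4* UMIs, at least 1 *Gsta3* UMI and at least 1 *Aldh3a1* UMI. This held for 227 of 11690 cells. The members were spread unevenly: replicate 1 had 14 of 4866 (0.288%, exact 95% binomial interval 0.157 to 0.482%) and replicate 2 had 213 of 6824 (3.12%, 2.72 to 3.56%), a 10.8-fold difference, with a mean of 1.70% ± 2.00 (SD, n = 2). Kept cells of replicate 1 were the deeper at the median, and when every cell was thinned to 3000 UMIs the expected shares were 0.0418% and 0.554%. Values for replicate 1 therefore rest on 14 cells, the deepest of which held 154801 of their 629211 UMIs. The libraries shared 9 kept barcodes, and no member barcode was found among the members of both.

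Glutathione S-transferases couple reactive compounds, among them the lipid aldehyde 4-hydroxynonenal, to the tripeptide glutathione, and aldehyde dehydrogenases oxidise aldehydes to acids. Many genes of this kind are targets of the transcription factor Nrf2 (*Nfe2l2*), which is held back in the cytoplasm by Keap1 and, under oxidative or electrophilic stress, binds antioxidant response elements together with small Maf proteins. Its targets in vascular cells include the cystine importer, the enzymes of glutathione synthesis, thioredoxin and peroxiredoxin systems, heme oxygenase and ferritin.

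*Gsta4* lies at chr9:78182774-78209349 on the plus strand, *Gsta3* at chr1:21240589-21265661 on the plus strand and *Aldh3a1* at chr11:61207537-61218421 on the plus strand (GRCm38). As an example of the sequence context of these and related genes, the RefSeq promoter windows (GRCm38.p6, from 250 bases before to 50 after each start) were searched on both strands for the core of the antioxidant response element, TGACNNNGC, which reads GCNNNGTCA on the other strand. The window of *Gsta3* and windows of *Gclm*, *Prdx1* and *Txnrd1*, genes of thiol metabolism, held it upstream of the start. They are shown because they hold the match, in the direction of the gene, with the 9 matching bases in capitals.
*Gsta3*, chr1:21240444-21240492, plus strand: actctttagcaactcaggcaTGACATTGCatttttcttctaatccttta
*Gclm*, chr3:122245403-122245451, plus strand: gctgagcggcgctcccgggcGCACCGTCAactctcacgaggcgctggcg
*Prdx1*, chr4:116685446-116685494, plus strand: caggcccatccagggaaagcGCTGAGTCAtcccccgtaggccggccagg
*Txnrd1*, chr10:82859094-82859142, plus strand, 1 of 3 promoters listed for the gene: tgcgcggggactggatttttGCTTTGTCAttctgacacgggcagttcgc
A window of *Srxn1* held a match at base 28 after the start, and the windows of *Slc7a11* and *Nqo1* held none. Results for the windows of *Gsta4* and *Aldh3a1* are not given here. These letters were found in 12.4% of all 32851 promoter windows, so that a match is a description of the window and not a binding site. Of the genes higher in members with the library as a block in the test described further on, 18 of 75 with a window held it (24.0%), against 17.0% of the genes tested and 4 of 69 of those that were lower (5.80%).

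The 3 genes by which the cells were chosen are given as a description only. *Gsta4* was at 784 and 538 CPM (UMIs of the gene per 1000000 UMIs of the summed cells) in members of replicates 1 and 2, with a median of 16.5 and 9.00 UMIs per cell. *Gsta3* was at 232 and 332 CPM, and *Aldh3a1* at 183 and 290 CPM. Counts were uneven between cells: 1 member of replicate 1 held 67 of the 115 *Aldh3a1* UMIs. The members, although few, held 19.4% and 52.5% of all *Gsta4* UMIs of the kept cells and 51.1% and 65.9% of all *Aldh3a1* UMIs. Single UMIs of these genes were found much more widely. A *Gsta3* UMI was present in 4.38% and 11.0% of all kept cells and in 3.85% and 9.59% of the cells with at least 4 of 10 endothelial markers, whose median depth was 14469.5 and 10166.5 UMIs. Whether these UMIs came from free RNA or from the cells themselves was not tested. Barcodes with 1 to 100 UMIs, which hold free RNA, carried *Gsta3* at 7.01 and 30.6 CPM, so that 1 UMI of *Gsta3* alone does not set a cell apart from the background. For *Aldh3a1* this background differed more between the libraries, with 1.04 and 20.99 CPM in free RNA. An *Aldh3a1* UMI was present in 0.962% and 10.3% of the cells with endothelial markers. Of the members, 6 of 14 and 56 of 213 held a single *Aldh3a1* UMI, and the part of free RNA in the difference in member share was not tested.

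At the edge of the rule, 35 members of replicate 2 had 2 or 3 *Gsta4* UMIs, and in them *Slc7a11*, a gene outside the rule, was at 165 CPM. The 74 cells of replicate 2 with *Gsta3* and *Aldh3a1* but 0 or 1 *Gsta4* UMI, just outside it, had 71.7 CPM of *Slc7a11*, while *Nqo1*, also outside the rule, was at 109 CPM inside and 101 CPM outside. In replicate 1, the 6 members with 1 *Aldh3a1* UMI had 22.0 CPM of *Slc7a11*, below the 35.9 CPM of the 74 cells with *Gsta4* and *Gsta3* but no *Aldh3a1*, and *Nqo1* was at 204 and 132 CPM. No member of replicate 1 had fewer than 4 *Gsta4* UMIs. A further 4 barcodes met the gene counts but had fewer than 3000 UMIs and were left out.

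Members were deeper than the kept cells at large, with a median of 37813 and 26604 UMIs, and 35.7% and 27.7% of them had more than 2 times the median UMIs of their library, against 7.15% and 7.72% of the kept cells. Doublets were not removed, and their part in the set was not tested. Each member was therefore compared with 1 cell of the same library that had no *Gsta3* and no *Aldh3a1* UMI and a total UMI count within 10%. All 14 and 213 members found such a cell, and the median depth of these matched cells was 37829.5 and 26605 UMIs. Mitochondrial shares were close (medians of 4.34% and 5.31% in members, 3.39% and 4.96% in matched cells), and so were the shares of cells with at least 3 UMIs of cell cycle genes (92.9% and 75.1% of members, 100% and 77.5% of matched cells). A median of 13.5 and 7 of 18 cell cycle genes had a UMI per member, more than the 9 and 5 per matched cell.

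Macrophage transcripts were few in the members and in the matched cells. *Lyz2*, the lysozyme gene of macrophages, gave a UMI in 2 of 14 and 7 of 213 members (14.3% and 3.29%), never more than 1 per cell, against 3 and 11 matched cells and 11.5% and 5.32% of all kept cells. *Tyrobp*, an adaptor of myeloid receptors, had no UMI in any member, which, at 3 counts, allows a share of cells with a UMI of up to 21.4% in replicate 1 and 1.41% in replicate 2 and does not limit the cells that express it. *Tyrobp* had no UMI in the matched cells either, and a UMI in only 0.390% and 0.117% of all kept cells. Its absence is therefore no trait of the members. Of 16 macrophage markers 11 were at 0 in all members, among them *C1qa*, *Adgre1* and *Ptprc*, and the number at 0 in matched cells is not given here. The whole list summed to 14.3 and 11.3 CPM in members and to 26.9 and 9.04 CPM in matched cells, with *Cd68* as the most abundant in members. The 15 and 5 cells that did carry at least 2 *Lyz2* UMIs with *Tyrobp* held no member, and none of them had 2 *Gsta4* UMIs. Members were 0.288% and 3.12% of all kept cells, and any *Gsta4* UMI was in 14.9% and 18.5% of them. So few cells would seldom hold a member, and the lack of overlap does not set members apart from macrophages.

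Smooth muscle transcripts were found in the members at levels given here beside those of matched cells. *Acta2*, the smooth muscle α-actin gene, was the most abundant of 15 contractile genes in them, at 3304 and 3018 CPM, and a median of 6 and 7 of the 15 genes had a UMI per member, against 8 and 6 per matched cell. The part of free RNA in these counts was not tested. *Myh11*, the smooth muscle myosin heavy chain, was at 27.0 and 94.0 CPM in members and at 30.0 and 105 CPM in matched cells. Markers of other cells were summed as well. The 10 endothelial markers summed to 15.9 and 65.3 CPM in members, above the 9.48 and 24.6 CPM in matched cells of the same libraries. Of the cells with at least 4 of them, 4 of 146 in replicate 2 and 0 of 104 in replicate 1 were members. Schwann cell markers were at 50.9 and 21.8 CPM in members and 15.8 and 25.5 CPM in matched cells. Mesothelial and epithelial markers were at 7.95 and 5.67 against 3.16 and 18.1 CPM. Adipocyte markers, mostly *Fabp4*, were at 215 and 190.0 against 319 and 190.3 CPM, and pericyte markers at 178 and 103 against 115 and 208 CPM. No gene of these lists passed, but not all were abundant enough to be tested (1 of 8, 1 of 10, 2 of 8 and 5 of 7 were). *Esam*, a junction protein of endothelial cells, was the 1 of 3 tested endothelial markers that passed, with the library as a block (4.77 and 21.4 CPM against 1.58 and 5.49 CPM; edgeR adjusted p = 0.0165).

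For tests, UMIs were summed over the members and over the matched cells of each library, which gave 4 sums, and 10321 genes were tested with edgeR's quasi-likelihood test, leaving out the 3 genes of the rule. Members and matched cells of 1 library come from the same culture, so each comparison is given both without and with the library as a block. Without the block 12 genes were higher in members (0.116% of the genes tested) and none was lower (0%), with 207 higher and 209 lower at an unadjusted p under 0.05, and DESeq2 called 38 higher and 6 lower. With the block 92 genes were higher (0.891%) and 98 were lower (0.95%), all of them in the same direction in both libraries, and all 12 were among the 92. The median log2 fold change of all genes was -0.0054 without and -0.0039 with the block. The 12 genes were *Slc7a11*, *Nqo1*, *Gclm*, *Srxn1*, *Txnrd1*, *Prdx6*, *Blvrb*, *Pgd*, *Gsta2*, *Gm3776*, *Map7d2* and *Gm20658*. Without the members of replicate 1 there were 27 calls with all 12 among them, without the members of replicate 2 there were 14 with 7 of the 12, and without the matched cells of replicate 1 or 2 there were 11 and 10 with 10 and 4 of the 12, where the remaining sum was assumed to vary like the others. Against comparison cells that held *Gsta4* themselves, no gene passed without the block and 117 did with it, and all 12 kept their direction. Without cells above 2 times the median UMIs of their library, 7 of the 12 still passed without the block and *Slc7a11*, *Txnrd1*, *Pgd*, *Map7d2* and *Gm20658* did not, with log2 fold changes of 3.72, 1.83, 2.07, 3.32 and 5.19, while all 12 passed with the block. In the scatter of both libraries, genes higher or lower with the block lie in opposite corners.

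**Figure D1:**
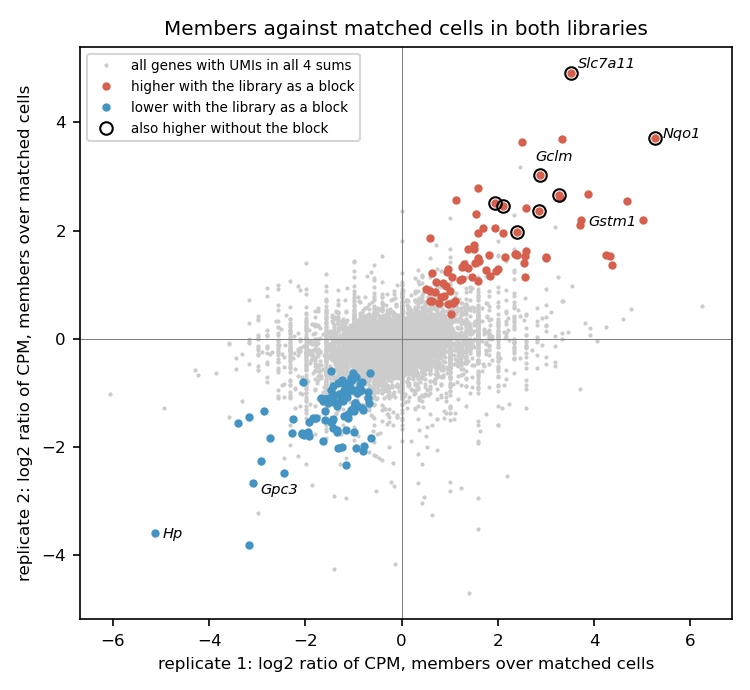
Each point is a gene with UMIs in all 4 sums (9933 genes), with the log2 ratio of CPM in members over matched cells of replicate 1 on the x axis and of replicate 2 on the y axis. Red points (76 genes) were higher and blue points (98 genes) lower with the library as a block, black rings mark 8 genes also higher without it, and all coloured points lie in the upper right or the lower left.

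Genes of cystine uptake and glutathione synthesis came from a list of which most members did not pass. *Slc7a11* (chr3:49892526-50443614, minus strand), the cystine-glutamate exchanger that brings in the limiting amino acid of glutathione, was at 162 and 294 CPM in members of replicates 1 and 2 and at 14.2 and 9.75 CPM in matched cells. Both libraries had far higher sums in members, an 11.4-fold and a 30.1-fold difference (log2 fold change 4.50 ± 0.39 SE, edgeR adjusted p = 0.0224; with the block 4.71 ± 0.28, adjusted p = 5.77e-05). The share of cells with a *Slc7a11* UMI was 77.9% of members and 7.98% of matched cells in replicate 2 (intervals 71.8 to 83.3% and 4.72 to 12.5%). In replicate 1 it was 9 of 14 members and 7 of 14 matched cells, with intervals that overlap (35.1 to 87.2% and 23.0 to 77.0%), and 1 member there held 39 of the 102 UMIs. *Slc7a11* was not restricted to members, since the cells with endothelial markers had 99.98 and 109 CPM of it, with a UMI in 43.3% and 28.1% of them. *Gclm* (chr3:122245557-122270732), the modifier subunit of glutamate-cysteine ligase, was at 764 and 1079 CPM in members and at 104 and 132 CPM in matched cells. That is a 7.33-fold and an 8.15-fold difference (log2 fold change 3.05 ± 0.25, edgeR adjusted p = 0.0224). *Gclc*, the catalytic subunit, and *Gsr*, which regenerates glutathione from its oxidised form, passed the edgeR test with the block only. *Gclc* was at 251 and 102 CPM against 42.7 and 46.1 CPM (log2 fold change 1.72 ± 0.27), and *Gsr* at 69.9 and 94.9 CPM against 15.8 and 33.1 CPM (1.73 ± 0.21).

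Of 16 tested genes of glutathione synthesis, recycling and cystine uptake, 2 were higher without and 4 with the block and none was lower, with a median log2 fold change of 0.46 and 0.53. In block fits with other cell selections, up to 2 genes of the list were lower (2 of 16 with 3 comparison cells per member, beside 7 higher). The others did not pass. Among them were the partner chain of the exchanger, *Slc3a2* (140 and 218 CPM in members, 156 and 118 CPM in matched cells), and the glutathione peroxidase *Gpx1* (299 and 259 CPM against 335 and 397 CPM). *Gpx4*, the peroxidase of lipid hydroperoxides, was at 885 and 961 CPM against 575 and 769 CPM (edgeR adjusted p = 0.0906 with the block). Its mean in members, 923 CPM, was the highest of the list, close to 922 CPM for *Gclm*, which was above it in replicate 2.

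The antioxidant enzymes formed the broadest group. Of 20 listed Nrf2 targets other than transferases, 4 were higher without and 15 with the block, none was lower, and the median log2 fold change was 2.00 and 2.04. The list summed to 47943 and 54990 CPM in members and to 11427 and 19833 CPM in matched cells, and its most abundant gene was *Fth1*. *Nqo1* (chr8:107388225-107403206, minus strand), a quinone reductase, was at 304 and 234 CPM in members and 7.90 and 17.9 CPM in matched cells. Both ratios were large, 38.4-fold and 13.1-fold (log2 fold change 4.27 ± 0.37, edgeR adjusted p = 0.0224), and 100% and 93.4% of members but 21.4% and 31.5% of matched cells had an *Nqo1* UMI. *Srxn1*, the sulfiredoxin that repairs overoxidised peroxiredoxins, was at 304 and 233 CPM against 31.6 and 36.9 CPM (log2 fold change 3.05 ± 0.27, edgeR adjusted p = 0.0224). *Txnrd1*, cytosolic thioredoxin reductase, was at 631 and 743 CPM against 164 and 131 CPM (2.33 ± 0.23, edgeR adjusted p = 0.0242). *Blvrb*, a biliverdin and flavin reductase of heme breakdown, was at 644 and 934 CPM against 150 and 171 CPM (2.39 ± 0.24, edgeR adjusted p = 0.0242). *Prdx6*, a peroxiredoxin outside the list, was at 900 and 826 CPM against 125 and 161 CPM (2.69 ± 0.22, edgeR adjusted p = 0.0224). For each of these genes both member sums lay above both matched sums. In replicate 1, 1 member held 91 of the 191 *Srxn1* UMIs, and 1 member held 152 of the 397 *Txnrd1* UMIs.

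Further targets passed with the block only. *Prdx1*, an abundant peroxiredoxin, was at 4366 and 3117 CPM in members and at 827 and 1073 CPM in matched cells (log2 fold change 2.06 ± 0.19, edgeR adjusted p = 0.00049 with the block and 0.0556 without). The ferritin heavy chain *Fth1* was at 23042 and 22796 CPM against 4480 and 7705 CPM, and the light chain *Ftl1* at 15512 and 22267 CPM against 4635 and 9210 CPM. Ferritin, the iron store of the cell, thus held a larger share of all UMIs in members of both libraries, although processed copies of *Ftl1* in the genome make its count uncertain. *Hmox1*, inducible heme oxygenase, was at 358 and 704 CPM against 163 and 119 CPM (2.07 ± 0.28, edgeR adjusted p = 0.004 with the block and 0.184 without). The others were *Abcc1* and *Abcc4*, which export conjugates, the reductase *Cbr3*, the esterase *Esd*, catalase (*Cat*), the autophagy receptor *Sqstm1* and the heme transporter *Slc48a1*, with log2 fold changes from 1.09 (*Sqstm1*) to 2.83 (*Abcc4*). The 5 that did not pass were *Osgin1*, *Ephx1*, *Akr1b8*, *Ugdh* and *Trim16*.

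The regulators themselves did not pass. *Nfe2l2*, the gene of Nrf2, was at 105 and 101 CPM in members and at 93.3 and 90.9 CPM in matched cells (log2 fold change 0.26 ± 0.17 with the block, edgeR adjusted p = 0.668). *Keap1* was at 35.0 and 38.8 CPM against 39.5 and 39.9 CPM (0.018 ± 0.21). Their transcripts were thus at nearly the same level in both sets, as the plot of antioxidant genes shows.

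**Figure D2:**
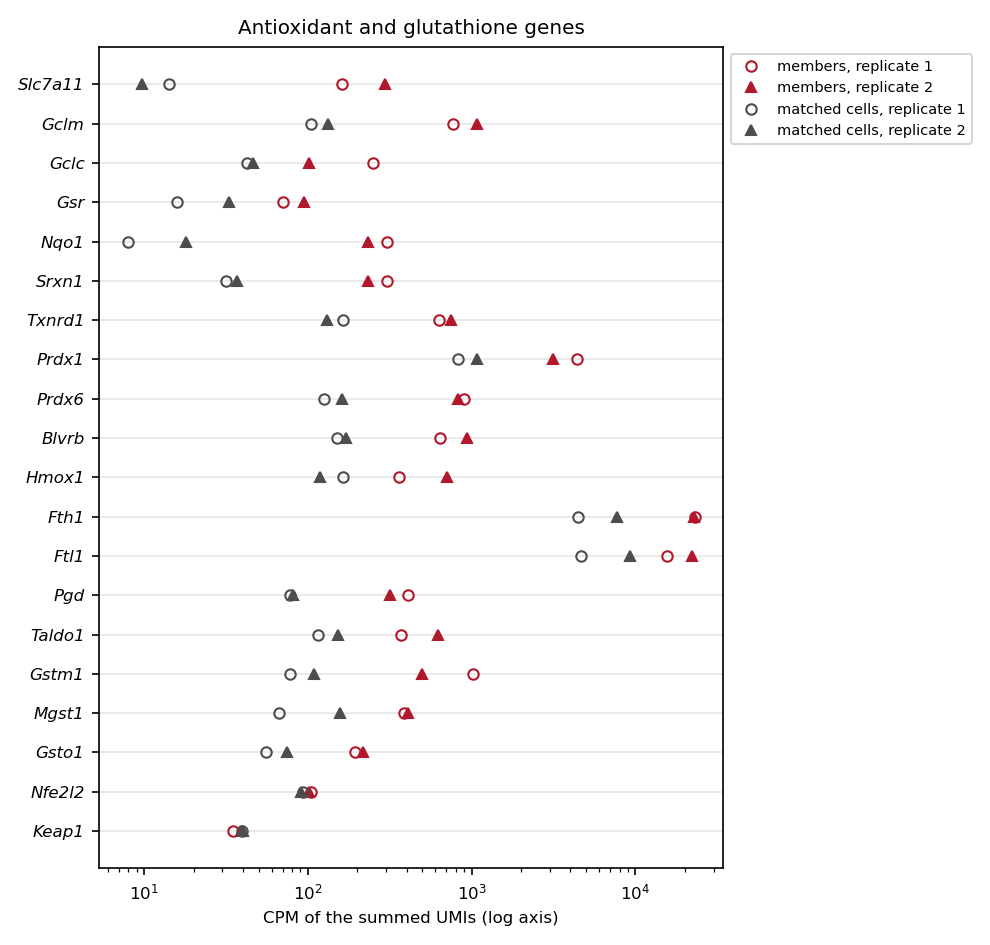
CPM of the UMIs summed over members (red) and matched cells (grey) of replicate 1 (open circles) and replicate 2 (filled triangles), on a log axis, for 20 genes. Both member sums lie above both matched sums for every gene shown from *Slc7a11* to *Gsto1*, while the 4 values of *Nfe2l2* (90.9 to 105 CPM) and of *Keap1* (35.0 to 39.9 CPM) lie together.

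Some glutathione transferases beyond those of the rule were higher, and most did not pass. *Gsta1*, *Gm3776* and *Gsta2* lie beside *Gsta4* on chromosome 9, between 78230656 and 78355788, and encode closely similar alpha class enzymes, so that reads may be split among them and the single values are uncertain. *Gsta2* was at 85.8 and 51.9 CPM in members and had 6 UMIs in all matched cells, 0 and 1.06 CPM. *Gsta1* was at 20.7 and 67.5 CPM against 0 and 1.06 CPM, and *Gm3776* at 31.8 and 51.3 CPM against 0 and 0.886 CPM. Between 39.4% and 57.1% of members had a UMI of each of the 3 genes, in each library, and at most 1.88% of matched cells. The edgeR test passed without the block for *Gsta2* (log2 fold change 6.21 ± 0.57, adjusted p = 0.0228) and *Gm3776* (5.84 ± 0.54, adjusted p = 0.0228) and with it for *Gsta1* (6.07 ± 0.39, adjusted p = 5.77e-05). *Gstm1*, of the mu class, was the most abundant other transferase, at 1025 and 499 CPM against 77.5 and 110 CPM (log2 fold change 2.89 ± 0.29, edgeR adjusted p = 0.00079 with the block and 0.0748 without). Its family also holds similar copies. Of the 15 tested transferases of the list, which does not hold *Gm3776*, 1 was higher without and 6 with the block and none was lower, with a median of 0.60 and 0.66. The others of the 6 were *Gstp1*, *Gsto1* and *Mgst1*, and *Gstt1* (47.7 and 29.0 CPM against 47.4 and 39.9 CPM) and *Gstm5* (134 and 103 CPM against 128 and 108 CPM) were among the 9 that did not pass.

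Of 10 enzymes that yield NADPH, the electron donor of glutathione and thioredoxin reductase, 1 was higher without the block and 3 with it. *Pgd*, of the pentose phosphate pathway, was at 408 and 317 CPM in members and 77.5 and 81.3 CPM in matched cells (log2 fold change 2.29 ± 0.25, edgeR adjusted p = 0.0361). *Taldo1* (372 and 626 CPM against 115 and 152 CPM) and *Tkt* (272 and 228 CPM against 130 and 145 CPM), of the non-oxidative branch of the same pathway, passed with the block. *G6pdx*, its first enzyme, did not (92.2 and 98.1 CPM against 60.1 and 65.4 CPM). None of 14 other aldehyde dehydrogenases passed, the most abundant of which was *Aldh2* (245 and 254 CPM against 174 and 162 CPM), and none of 13 reductases and cytochrome P450 enzymes. Of 8 tested genes around the aryl hydrocarbon receptor, 2 were higher with the block. These were the receptor *Ahr* (25.4 and 33.3 CPM against 6.32 and 13.6 CPM; edgeR adjusted p = 0.0257) and its target *Cyp1a1*, which had 52 UMIs in members and none in matched cells, at least 17.3-fold higher against a floor of 3 counts over the group. Few members carried it, since a *Cyp1a1* UMI was found in 3 of 14 and 18 of 213 (21.4% and 8.45%). *Cyp1b1*, another target and the most abundant of that list, was at 170 and 201 CPM against 217 and 222 CPM and did not pass.

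Among the genes with the largest rises, several were in none of the lists. *Map7d2* (chromosome X), a microtubule-associated protein, was at 114 and 87.5 CPM in members and at 0 and 5.67 CPM in matched cells (log2 fold change 4.51 ± 0.51, edgeR adjusted p = 0.0473). In replicate 1 this rests on 4 of 14 members, 1 of which held 61 of the 72 UMIs, and it was among the genes that lost their call without the block when the deep cells were left out. *Gm20658*, annotated as an antisense gene on chromosome 12, was at 35.0 and 27.6 CPM against 0 and 0.709 CPM (5.63 ± 0.55, edgeR adjusted p = 0.0242). *Adh7*, an alcohol dehydrogenase that acts on retinol, was at 63.6 and 70.6 CPM against 0 and 7.44 CPM and passed with the block (3.58 ± 0.36, edgeR adjusted p = 0.00079). *Tmem37* (27.0 and 61.8 CPM against 4.74 and 4.96 CPM) and *Gbe1*, the glycogen branching enzyme (46.1 and 49.9 CPM against 3.16 and 7.80 CPM), passed likewise. Prolactin family genes were carried by few members. *Prl2c2* had a UMI in 7.14% and 7.98% of members (1 cell in replicate 1) and in no matched cell, with 100 UMIs in all, at least 33.3-fold higher against 3 counts over the group. *Prl2c3* was at 149 and 5.84 CPM against 0 and 0.177 CPM, with 1 UMI in all matched cells and 127 in members (ratio 127, 95% counting interval 22.4 to 5054). Of these 127, 94 were in replicate 1 and 64 in 1 of its cells, the ratio in replicate 2 alone was 33.0, and the edgeR adjusted p was 0.00049 with the block and 0.779 without. The copies are closely similar, so reads may be shared between them.

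Other programs were examined for comparison. Over all genes tested, 0.116% were higher and 0% lower without the block, and 0.891% and 0.95% with it. A list of this size with no call is near that share. None of 15 genes of ATF4 and the integrated stress response passed without or with the block (median log2 fold change 0.04 and 0.07). *Slc7a11* is also known as an ATF4 target, and the part of ATF4 in its level was not tested. *Atf4* was at 148 and 83.0 CPM in members and 217 and 111 CPM in matched cells. None of 14 p53 targets passed (median 0.14 and 0.13), with *Cdkn1a* at 243 and 266 CPM against 239 and 380 CPM. None of 18 cell cycle genes passed (median 0.04 and 0.08), with *Mki67* at 168 and 164 CPM against 201 and 169 CPM. Of 11 tested foam-like and lysosomal genes, 1, *Ctsd*, the protease cathepsin D, was higher with the block (825 and 787 CPM against 406 and 575 CPM; edgeR adjusted p = 0.0375).

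Genes that were lower in members passed the edgeR test only with the library as a block. *Thbs1*, the matrix protein thrombospondin 1, was at 486 and 269 CPM in members and at 1977 and 918 CPM in matched cells. Both member sums lay below both matched sums, and the log2 ratios were -2.02 and -1.77 (log2 fold change -1.79 ± 0.13, edgeR adjusted p = 0.00013 with the block and 0.63 without). *Nov* (CCN3), a matricellular protein, was at 111 and 113 CPM against 422 and 393 CPM (-1.75 ± 0.16, edgeR adjusted p = 0.00033 with the block and 0.0548 without). *Gpc3*, a membrane proteoglycan, was at 3.18 and 3.36 CPM against 26.9 and 21.4 CPM (-2.63 ± 0.35). *Hp*, haptoglobin, was at 1.59 and 0.708 CPM against 55.3 and 8.51 CPM (-3.91 ± 0.52), with 5 UMIs in all members. *Col14a1* (60.4 and 47.1 CPM against 294 and 158 CPM) and *Col8a1* (50.9 and 106 CPM against 367 and 267 CPM) encode collagens. *Ltbp2* (17.5 and 5.13 CPM against 94.8 and 28.7 CPM) encodes a latent TGF-β binding protein. *Sfrp1* (96.9 and 18.1 CPM against 409 and 60.1 CPM) encodes a secreted Wnt antagonist, and *Pappa* (42.9 and 19.5 CPM against 166 and 64.0 CPM) a protease of IGF-binding proteins. Of these genes *Sfrp1* was the 1 for which sums overlapped, since members of replicate 1 were above matched cells of replicate 2. The remaining genes of the 15 with the largest falls were *Lmo7*, *Tmem176a*, *Gpm6b*, *Adcyap1r1*, *Map3k7cl* and *Angptl1*, with log2 fold changes from -2.33 (*Lmo7*) to -1.70 (*Angptl1*) with the block. Over 9 other cell selections fitted with the block, *Adcyap1r1* passed in 5, *Map3k7cl* in 6 and *Angptl1* in 7, with the highest edgeR adjusted p at 0.238, 0.838 and 0.668. *Hp*, *Ltbp2*, *Lmo7*, *Tmem176a* and *Gpm6b* passed in 8 of the 9, with the highest at 0.0702, 0.156, 0.0929, 0.0730 and 0.170, and the other 7 falls in all 9.

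Of 13 genes of modulated and fibroblast-like VSMCs, 4 were lower with the block and none without (median log2 fold change -0.74 and -0.66). *Col1a1* was at 567 and 357 CPM in members and 1628 and 816 CPM in matched cells (-1.25 ± 0.14, edgeR adjusted p = 0.0013), *Col1a2* at 1006 and 826 CPM against 2219 and 1648 CPM, *Col3a1* at 354 and 279 CPM against 768 and 494 CPM, and the decoy receptor *Tnfrsf11b* at 3.18 and 33.3 CPM against 28.5 and 90.9 CPM. The proteoglycan *Lum*, the receptor *Pdgfra* and the fibronectin gene *Fn1*, the most abundant of the list in members, did not pass. *Spp1* (607 and 95.6 CPM against 104 and 75.1 CPM) and *Ly6a* (345 and 281 CPM against 232 and 246 CPM) were higher in members of both libraries but did not pass. In replicate 1, 1 member held 162 of the 382 *Spp1* UMIs. In 6 of 9 other cell selections fitted with the block, 1 gene of this list was higher in members, beside 5 to 8 that were lower. Of 13 tested contractile genes, 3 were lower with the block and none without (median -0.51 and -0.50). *Acta2* was at 3304 and 3018 CPM against 5223 and 4689 CPM (-0.55 ± 0.11, edgeR adjusted p = 0.0375), *Tpm2* at 761 and 608 CPM against 1524 and 937 CPM, and the calponin gene *Cnn1* at 66.8 and 30.8 CPM against 198 and 67.0 CPM. Without cells above 2 times the median UMIs, none of the contractile genes passed with the block, while 3 of the modulated genes did. Of 6 tested adventitial fibroblast markers, *Serpinf1* was lower with the block. Of the natriuretic peptide receptors that the study is about, looked up after the values were seen, *Npr1* (GC-A) had 0 and 8 UMIs in members and 0 and 13 in matched cells and was not tested. *Npr2* (GC-B) was at 33.4 and 49.9 CPM in members and 34.8 and 51.6 CPM in matched cells (log2 fold change 0.042 ± 0.20 with the block), and *Npr3*, the clearance receptor, at 113 and 76.1 CPM against 360 and 163 CPM (-1.24 ± 0.18, edgeR adjusted p = 0.0061 with the block and 0.989 without).

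**Figure D3:**
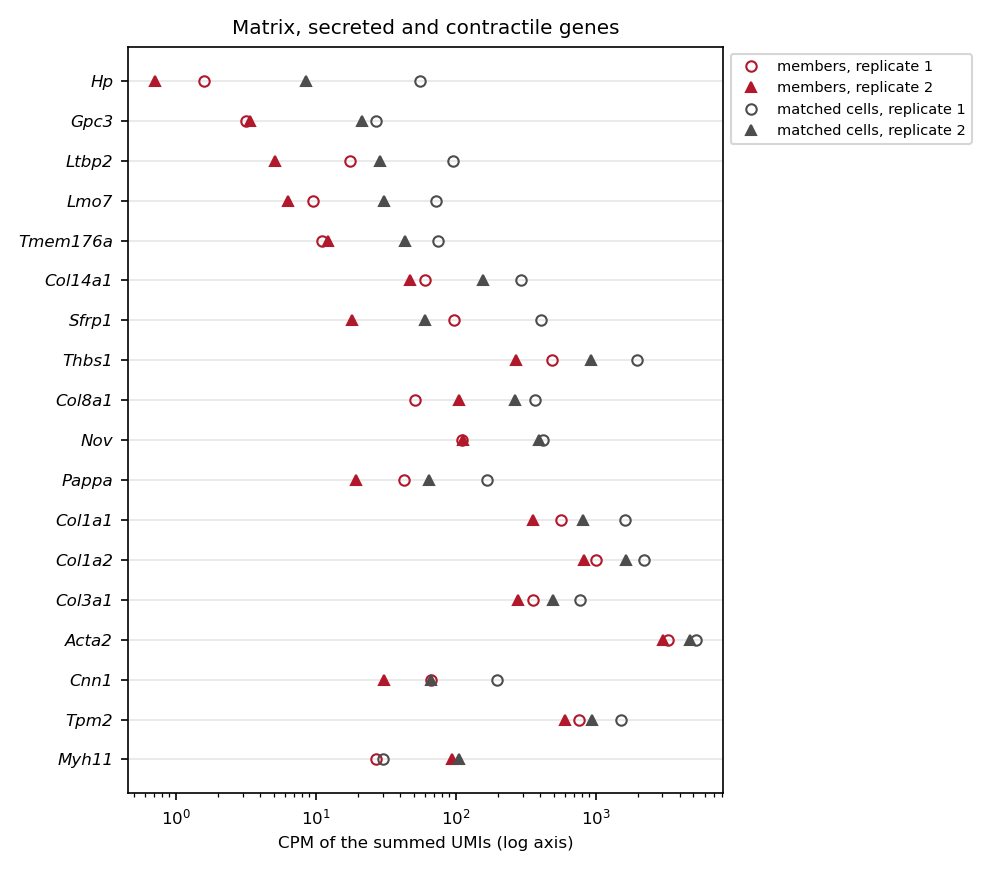
CPM of the UMIs summed over members (red) and matched cells (grey) of replicate 1 (open circles) and replicate 2 (filled triangles), on a log axis, for 18 genes of matrix, secreted and contractile proteins. Within each replicate the member value lies below the matched value for every gene shown, by little for *Myh11* (27.0 against 30.0 CPM and 94.0 against 105 CPM), which did not pass the test.

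As a description, levels are also given by how much of the rule a cell met, a grouping made by the genes that chose the members. Between the members and the 4565 and 5657 cells with neither *Gsta3* nor *Aldh3a1* were 78 and 193 cells with at least 2 *Gsta4* UMIs and exactly 1 of these genes, whose median depth of 34746.5 and 20303 UMIs also lay between. *Slc7a11* was at 10.3 CPM in cells with neither gene, 34.4 CPM in cells with 1 and 162 CPM in members of replicate 1, and at 8.01, 116 and 294 CPM in replicate 2. *Nqo1* was at 11.5, 125 and 304 CPM in replicate 1 and at 16.6, 123 and 234 CPM in replicate 2. *Thbs1* went the other way, with 1649, 999 and 486 CPM in replicate 1 and 844, 421 and 269 CPM in replicate 2.

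**Figure D4:**
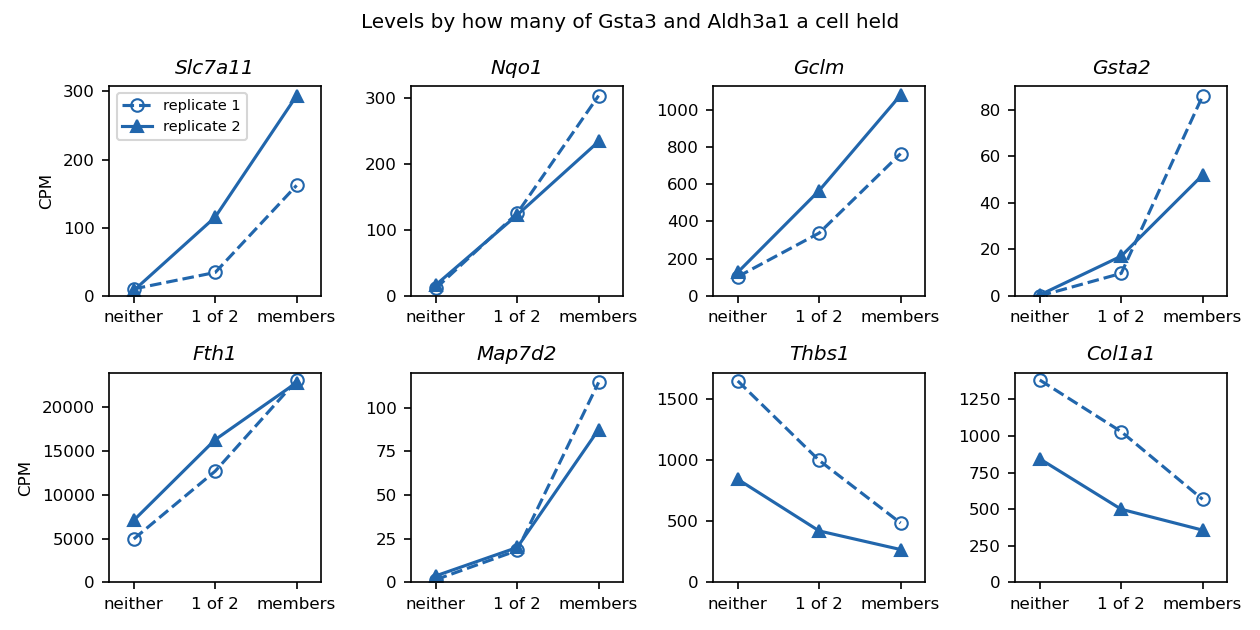
CPM (y axis, from 0) of 8 genes outside the rule in cells with neither *Gsta3* nor *Aldh3a1*, in cells with at least 2 *Gsta4* UMIs and 1 of these 2 genes, and in members, for replicate 1 (open circles, dashed) and replicate 2 (triangles, solid). The first 6 genes are ordered upward and *Thbs1* and *Col1a1* downward in both replicates.

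The members of replicate 2 were also divided into 3 groups of 71 by their summed CPM of the rule genes, which again is a description by the genes that chose the cells and is no support for a pattern. From the lowest to the highest group, *Slc7a11* was at 161, 282 and 454 CPM, *Gclm* at 535, 1113 and 1648 CPM, and *Hmox1* at 326, 688 and 1144 CPM. *Thbs1* was at 354, 283 and 158 CPM and *Col1a1* at 457, 333 and 272 CPM. *Nfe2l2* was at 97.9, 106 and 100.1 CPM, and the median depth was 27461, 26604 and 25721 UMIs. The part of depth in this order was not tested.

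In single cells, the summed CPM of *Slc7a11*, *Nqo1*, *Gclm*, *Srxn1* and *Txnrd1*, 5 genes chosen here because they had passed the test without the block, had a median of 1502 and 1935 in members and of 326 and 284 in matched cells. Higher medians in members follow from that choice and are no support for a pattern. The spread between cells is given as a description. In replicate 1 the members ranged from 378 to 6383 and the matched cells from 208 to 558, so the lowest members overlapped with the matched cells. In replicate 2 the members ranged from 0 to 7741, and 4 matched cells reached the lower quartile of the members (819), 1 of them with the highest value of all (8539). Some cells outside the rule were at member level: 36 of 4852 other cells of replicate 1 (0.742%, interval 0.520 to 1.03%) and 102 of 6611 of replicate 2 (1.54%, 1.26 to 1.87%) were at or above the members' median. Of these, 15 and 44 had at least 2 *Gsta4* UMIs and 1 of *Gsta3* and *Aldh3a1*.

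**Figure D5:**
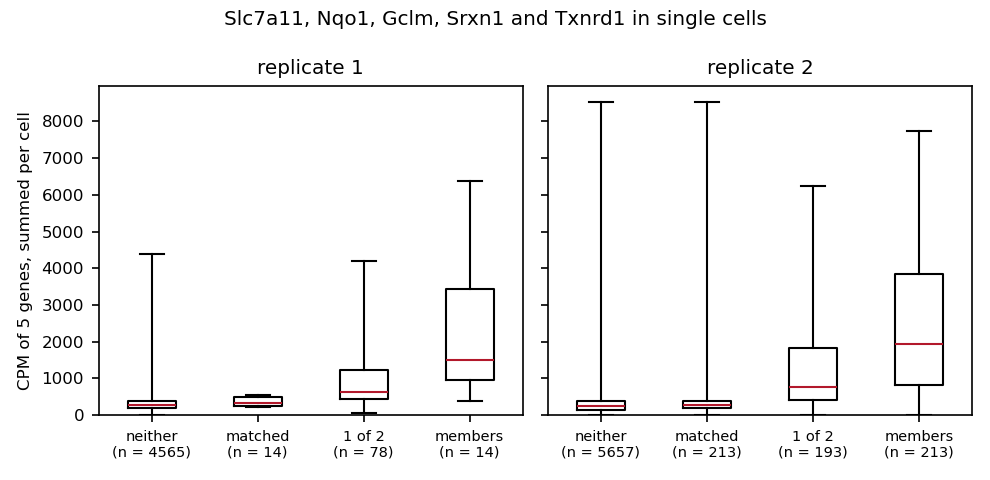
Summed CPM per cell of *Slc7a11*, *Nqo1*, *Gclm*, *Srxn1* and *Txnrd1* in cells with neither *Gsta3* nor *Aldh3a1*, matched cells, cells with 1 of the 2 genes and members of each replicate. Boxes span the quartiles with the median as a red line, and whiskers reach the lowest and highest cell. Medians of members (1502 and 1935) exceed those of matched cells (326 and 284), for genes chosen because they had passed that comparison.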

How the data were processed

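The authors counted UMIs per gene and barcode with Cell Ranger (version 3.0.2 in the submitters' notes; 3.0.2 and 3.1.0 in the matrix headers of replicates 1 and 2) on mm10 and deposited raw counts of 31053 genes. Kept cells followed the study's filters; genes were matched to GENCODE M21 (30934 identifiers), and promoter windows to RefSeq GRCm38.p6. Members and matched cells (1 to 1, UMIs within 10%, same library) were summed to 4 sums and tested with edgeR 4.0.16 (TMM, filterByExpr, Benjamini-Hochberg, threshold 0.05) without and with the library as a block. Library numbers pair the sums, since both sets of a library come from 1 culture; their deviations correlated at r = 0.379 over 10321 genes. DESeq2 1.42.0 was an alternative. An exact permutation test of 2 sums against 2 cannot go below 0.33. Binomial intervals (exact, 95%) and floors (3 counts) cover counting error only. CPM scale the counts of a set to 1000000 UMIs; 3′ UMI counts do not grow with transcript length.

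The members and gene lists were chosen with earlier results of these data known. Named genes were the 15 with the largest change in each direction past the threshold (with the block), in the same direction in both libraries and at 20 CPM or more in 1 set, plus listed genes that passed or were most abundant. Since members were selected on *Gsta4*, *Gsta3* and *Aldh3a1*, these were not tested. The result of 1 further gene list is not reported here.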

Additional observations from a re-analysis of the deposited data

How the results depend on the processing

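The replicate block moved the number of called genes from 12 to 190, of which 92 were higher and 98 lower. Without the block, the count was 44 with DESeq2, 198 with no filter on low counts, 20 with 3 comparison cells per member, 42 with no matching, 49 under a stricter rule (at least 4 *Gsta4*, 2 *Gsta3* and 2 *Aldh3a1* UMIs) and 0 against comparison cells with *Gsta4* (399 at an unadjusted p under 0.05). It ranged from 10 to 27 when 1 of the 4 sums was left out. With the block, in fits added after the data were seen, it was 633 with 3 comparison cells per member, 1006 with no matching, 369 with matching also on cycling and *Myh11*, 117 against comparison cells with *Gsta4*, 316 without cells holding *Lyz2* or *Tyrobp* UMIs, 94 without cells above 2 times the median UMIs, 344 under a mitochondrial limit of 10% and 393 with a minimum of 1000 UMIs. The cause of these moves was not tested. The count for the stricter rule with the block is not given here. Without the block, 11 of the 12 genes still passed under a mitochondrial limit of 10%, and 11 without cells holding *Lyz2* or *Tyrobp* UMIs. The mean member share ranged from 0.288% to 3.12% when 1 library was left out. The 12 genes kept their direction under all alternatives, and no named gene reversed in any of them. Some calls with the block were lost in 9 other cell selections. Among the strongest rises and falls, *Adcyap1r1*, *Map3k7cl* and *Angptl1* lost theirs in 2 to 4 of them. *Gstm1*, *Prl2c2*, *Prl2c3*, *Hp*, *Ltbp2*, *Lmo7*, *Tmem176a* and *Gpm6b* lost theirs in 1. Other listed genes lost calls as well. Contractile genes called lower ranged from 0 (without cells above 2 times the median UMIs) to 8 (no matching), against 3 in the main fit. Nrf2 targets called higher ranged from 12 (against comparison cells with *Gsta4*) to 17, against 15 in the main fit. Replicate 1 rests on 14 members, which limits what low genes can show, and reads of closely similar *Gsta*, *Gstm* and *Prl2c* copies may be shared between them, which was not tested.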
